A study of Mus musculus with 4 samples.

Results

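The Fbxw genes of mouse chromosome 9 form a cluster of F-box genes known from oocytes, and 10 of them are described here: Fbxw13, Fbxw14, Fbxw15, Fbxw16, Fbxw18, Fbxw19, Fbxw20, Fbxw21, Fbxw24 and Fbxw28. They were taken by name from the annotation, GENCODE release M21, through the Ensembl gene IDs of a count table with 53715 rows, and all 10 had counts in every library. The table comes from RNA sequencing of whole mouse embryos at the 2-cell stage, of C57BL/DBA2 strain. Every embryo had been injected as a zygote at 20 μM, either with siNC, a control short RNA for RNA interference (siRNA), or with one directed at SPENH0335, by the series' title an RNA made from an enhancer, and had been cultured in KSOM medium. There were 2 control and 2 knockdown libraries, called control 1, control 2, knockdown 1 and knockdown 2. The number of embryos in a library, and whether libraries came from separate collections, is not stated by the labels, so p-values measure no more than the spread among these 4 libraries, part of which may be technical. SPENH0335 itself, and the extent of its knockdown, were not analysed here.

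An F-box protein is the exchangeable substrate receptor of an SCF ubiquitin ligase. Its F-box binds Skp1, which docks on the scaffold Cul1, and the RING protein Rbx1 recruits the ubiquitin-conjugating enzyme. In Fbxw proteins the part that holds the substrate is a propeller of WD40 repeats. The mouse genome carries an expanded group of such genes on chromosome 9 whose transcripts accumulate in the growing oocyte, and transcripts of that kind are handed to the embryo, which degrades much of its maternal RNA around the 2-cell stage. The substrates of most proteins of the group are not well known.

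The cluster was compact and uniform in structure. On GRCm38 it ran from 109139447 to 109790670 of chromosome 9 (651 kb) and held 15 Fbxw genes, all on the minus strand. Besides the 10 genes described here these were Fbxw22, Fbxw25, Fbxw26 and Fbxw27, which are protein-coding, and Fbxw23, a transcribed pseudogene. From the low coordinate the order was Fbxw21 (109139447 to 109162041), Fbxw13 (109179227 to 109195975), Fbxw20 (109217432 to 109234754), Fbxw14 (109270790 to 109287676), Fbxw28 (109322886 to 109339659), Fbxw16 (109432316 to 109449140), Fbxw19 (109476654 to 109495875), Fbxw15 (109552602 to 109568262), Fbxw24 (109601116 to 109626057) and Fbxw18 (109676734 to 109702700). The chosen coding transcript of each of the 10 had 10 exons and a coding length between 1392 and 1407 bases.

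The stretches before their start sites were close copies of each other. A promoter window of 300 bases, from 250 before to 50 after the start, was found in RefSeq (GRCm38.p6) for 9 of the 10 genes, and none was matched for Fbxw13. Between these windows the identity over 36 pairs ran from 83.4 to 97.3%, with a median of 90.7%. The 120 bases upstream of the start are shown for 6 genes, on the minus strand and 5′ to 3′, because they show what the copies share and where they differ. Capitals mark CAGCTG, a form of the E-box CANNTG that basic helix-loop-helix factors such as the oocyte factor FIGLA recognise, and the AT-rich TTTAAA. The CAGCTG matches of Fbxw19, at 125 and 183 bases upstream, lie outside the 120 bases shown. The windows lie at chr9:109626060-109626179 (Fbxw24), chr9:109339660-109339779 (Fbxw28), chr9:109287677-109287796 (Fbxw14), chr9:109234755-109234874 (Fbxw20), chr9:109495855-109495974 (Fbxw19) and chr9:109162023-109162142 (Fbxw21).
Fbxw24: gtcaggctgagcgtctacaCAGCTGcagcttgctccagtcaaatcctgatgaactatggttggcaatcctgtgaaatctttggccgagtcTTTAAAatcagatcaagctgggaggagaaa
Fbxw28: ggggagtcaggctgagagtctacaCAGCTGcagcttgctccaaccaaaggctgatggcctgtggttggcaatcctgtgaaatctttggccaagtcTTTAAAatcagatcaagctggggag
Fbxw14: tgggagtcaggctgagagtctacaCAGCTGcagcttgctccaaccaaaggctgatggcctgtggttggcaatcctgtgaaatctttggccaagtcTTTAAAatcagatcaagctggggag
Fbxw20: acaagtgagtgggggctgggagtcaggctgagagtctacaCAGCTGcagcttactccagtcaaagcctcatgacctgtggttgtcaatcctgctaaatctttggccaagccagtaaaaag
Fbxw19: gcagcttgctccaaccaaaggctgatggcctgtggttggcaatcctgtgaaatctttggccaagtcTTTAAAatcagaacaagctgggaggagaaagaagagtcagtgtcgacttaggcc
Fbxw21: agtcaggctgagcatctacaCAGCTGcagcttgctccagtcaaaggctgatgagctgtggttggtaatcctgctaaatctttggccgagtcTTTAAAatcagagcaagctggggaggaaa

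All 9 windows held CAGCTG, against 16.1% of the 27025 RefSeq promoter windows of the same length. The match nearer to the start began between 80 and 125 bases upstream, and 8 of the 9 had another match between 139 and 183 bases upstream. TTTAAA was in 8 of the 9 windows, between 10 and 54 bases upstream of the annotated start, against 13.2% of all windows; Fbxw20 lacked it. Fbxw19, whose annotated start lies farther downstream in the shared sequence than those of the others, had its TTTAAA 54 bases from the start, and Fbxw18 had it at 10 bases. TATAAA, the classical TATA box, was in 0 of the 9 windows and in 14.2% of all. The homeobox-type motif TAATTG was in 0 of the 9 and in 8.15% of all, and the related TAATTA in 0 of the 9 and in 5.31% of all. CCAAT was in 1 of the 9, that of Fbxw16, and in 37.9% of all. Motifs were searched on both strands, and none of these spellings overlaps another in the 120 bases shown. The longest run common to the 9 windows was the 12 bases AAATCTTTGGCC, which 10 of all windows held, the other being that of Fbxw26. Of the 3 windows found for other genes of the cluster, 2 held both CAGCTG and TTTAAA, those of Fbxw25 and Fbxw26. The windows are copies of a common sequence, so matches in them are not independent of each other. The motifs were chosen after these sequences were seen, so the shares over all windows are given as a description and not as a test. A match describes the sequence and shows no binding.

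Among the 10 genes the coding sequences were less alike, with the exception of a single pair. Over the 45 pairs among the 10 genes, identity over the aligned columns, gaps included, had a median of 83.5% and a range from 79.2% (Fbxw24 with Fbxw28) to 99.1% (Fbxw14 with Fbxw28). Outside that closest pair the highest value was 88.7%, between Fbxw16 and Fbxw19. Some pairs with other genes of the cluster were closer than that: Fbxw22 was at 92.3% to Fbxw14 and at 91.9% to Fbxw28. Fbxw14 and Fbxw28 differed at 13 of 1398 coding bases. Their most different stretch, coding bases 835 to 924, lies in a single exon of each gene, at chr9:109276172-109276261 and chr9:109328255-109328344 on the minus strand. It is shown with capitals where Fbxw28 differs from Fbxw14, at 4 of 90 bases, since this is as far as a short read could separate the pair there.
Fbxw14: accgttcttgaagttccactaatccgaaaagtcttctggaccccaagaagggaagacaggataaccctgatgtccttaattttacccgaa
Fbxw28: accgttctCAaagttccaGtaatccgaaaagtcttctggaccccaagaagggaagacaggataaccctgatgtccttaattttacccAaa

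**Figure D1:**
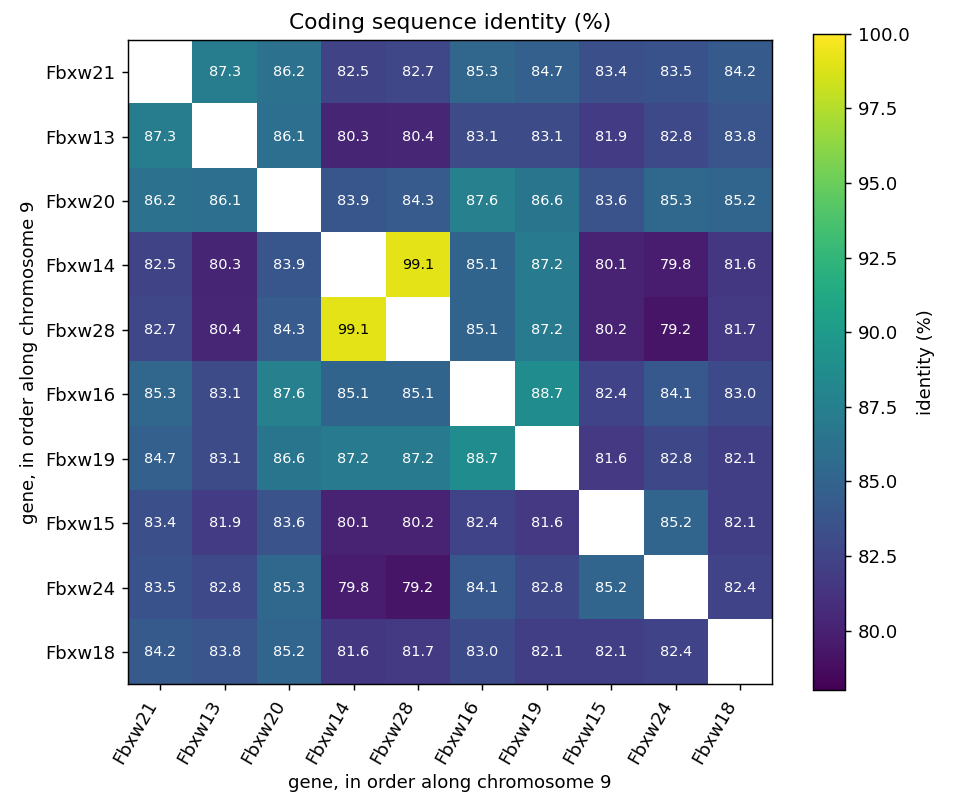
Identity of the coding sequences, in percent, between each pair of the 10 genes; rows and columns follow their order on chromosome 9 and the diagonal is left blank. Fbxw14 with Fbxw28 stands at 99.1%, and no other pair is above 88.7%.

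How far this bears on the counts was measured by the share of transcript windows that also occur in a transcript of another gene. For Fbxw14, 67.6% of windows of 50 bases and 44.8% of windows of 100 bases were found in another gene, nearly all in Fbxw28, and for Fbxw28 the shares were 67.1 and 46.2%. For the other 8 genes the shares ran from 5.77 to 26.7% at 50 bases and from 0.0 to 8.30% at 100 bases. Fbxw24 had the lowest share at both lengths. Fbxw16 had the highest at both, with 11.5% of its windows of 50 bases shared with Gm42494, a gene model on the opposite strand. For read length and the treatment of shared reads the sources used here give nothing, so the separate values of Fbxw14 and Fbxw28 are uncertain and their sum is given too. Without a known strand setting, reads of Fbxw16 and Fbxw15 cannot be told apart from those of the gene models that overlap them on the other strand. These opposite-strand models had at most 56 counts in a library.

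The 10 genes were abundant in 2-cell embryos. Together they took between 0.500 and 0.684% of all counts of a library, 471418 to 677249 counts. Levels of different genes are compared per length, as RPKM: counts per 1000000 counts of a library (CPM, after TMM scaling, the trimmed mean of M-values), divided by the length of the union of annotated exons in kilobases, with SD over the 4 libraries. By mean RPKM, 4 of the 10 were among the 100 highest protein-coding genes and 9 among the 1000 highest, of 19506 with any signal. Fbxw24 stood highest at 1076 ± 149 RPKM (SD, n = 4), the 27th of all protein-coding genes. Fbxw28 followed at 656 ± 120.5 RPKM and Fbxw14 at 582 ± 88.6 RPKM, with ranges over the libraries that overlapped each other but not those of Fbxw24 or of the gene below. Fbxw15, first described as an oocyte-selective gene of the mouse ovary, was at 338 ± 56.9 RPKM, with a range apart from those of the other 9.

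A middle group of 4 genes had overlapping ranges from each to the next. These were Fbxw18 at 182 ± 19.2 RPKM, Fbxw16 at 179 ± 39.3 RPKM, Fbxw20 at 142 ± 34.2 RPKM and Fbxw19 at 97.4 ± 10.5 RPKM. Fbxw21, at 60.5 ± 8.71 RPKM, and Fbxw13, at 17.4 ± 4.59 RPKM, were the lowest and did not overlap with each other or with any other of the 10. The highest and lowest means differed 62.0-fold. With the length of the longest transcript in place of the exon union, Fbxw19 and Fbxw20 changed places and the other 8 kept theirs. Fbxw19 was then at 157 RPKM, and its level and place are uncertain to that extent. The chosen coding transcripts of the 4 middle genes had similar lengths, 1519 (Fbxw18), 1497 (Fbxw16), 1511 (Fbxw20) and 1483 bases (Fbxw19). Their mean CPM was 276, 323, 345 and 340, so by CPM Fbxw18 was the lowest of the 4. The order within the middle group therefore depends on the length used. Of the 45 pairs of genes, 44 stood in the same order in all 4 libraries, so the order of levels differed little between control and knockdown embryos.

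**Figure D2:**
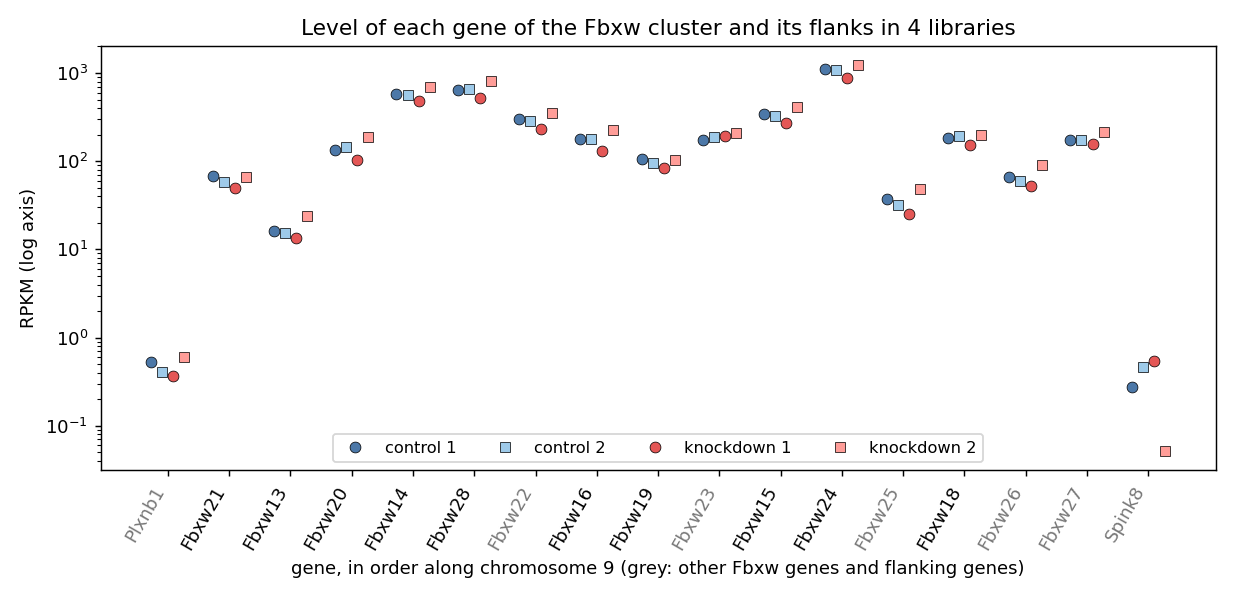
RPKM (log axis) of the 15 Fbxw genes of the cluster and the nearest protein-coding gene on each side, in their order along chromosome 9, with a point per library. All Fbxw genes lie above 10 RPKM, and both flanking genes lie below 1 RPKM in each library.

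The genes next to the cluster were low. The nearest protein-coding genes on the outside were Plxnb1, a plexin receptor gene, at 0.474 ± 0.106 RPKM, and Spink8, a protease inhibitor gene, at 0.335 ± 0.22 RPKM (SD, n = 4). Neither passed the test. In CPM, Plxnb1 was at 5.04 and 3.90 in the controls and at 3.52 and 5.72 in knockdown 1 and knockdown 2. The 9 other annotated rows inside the cluster, small nuclear RNA genes, antisense models and a processed pseudogene among them, had at most 78 counts in any library, and 4 had none in all libraries. Of the other 5 Fbxw genes of the cluster, Fbxw22 was the highest at 294 ± 46.9 RPKM and Fbxw25 the lowest at 35.5 ± 9.79 RPKM. The pseudogene Fbxw23 was at 191 ± 12.9 RPKM, between Fbxw15 and Fbxw18. The level had no simple course along the chromosome: the 3 highest genes, Fbxw24, Fbxw28 and Fbxw14, were not all neighbours, and the 2 lowest of all 15, Fbxw13 and Fbxw25, were not neighbours either.

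The comparison of the design asks how transcripts respond when SPENH0335 is knocked down. None of the 10 genes passed the test of knockdown against control embryos: by edgeR's quasi-likelihood F-test over 25565 genes with Benjamini-Hochberg adjustment each had an adjusted p of 0.9999, above the threshold of 0.05, and 0 of the 10 had an unadjusted p under 0.05. Over all genes 0.0% were called at the adjusted threshold and 3.85% had an unadjusted p under 0.05. DESeq2 also called 0 of the 10, against 0.138% of all genes with an adjusted p, and limma-voom 0 of the 10, against 0.0% of all genes. Neither tool gave any of the 10 an unadjusted p under 0.05, against 4.38% of all genes with DESeq2 and 3.13% with limma-voom. The groups overlapped for all 10 genes, while they did not overlap for 32.7% of the genes tested. The values of each gene in each library follow in CPM.

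Fbxw24 was at 1665 and 1626 CPM in the control libraries and at 1294 and 1821 CPM in knockdown 1 and knockdown 2. The control values lay close together between those of the knockdown libraries. Its mean was 1646 ± 27.8 CPM for the controls and 1557 ± 373 CPM for the knockdowns (SD, n = 2), for a log2 fold change of -0.08 (SE 0.16).

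Fbxw28 was at 1248 and 1275 CPM in the controls and at 1010.4 and 1583 CPM in the knockdowns, for a log2 fold change of 0.04 (SE 0.21). Fbxw14, its near-identical partner, was at 1219.6 and 1196 CPM in the controls and at 1024 and 1478 CPM in the knockdowns (0.05, SE 0.18). Summed, the pair was at 2468 and 2471 CPM in the controls and at 2034 and 3061 CPM in the knockdowns, so that its control libraries nearly coincided and the knockdown libraries lay on either side of them.

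Fbxw15 was at 515 and 492 CPM in the controls and at 403 and 610.0 CPM in the knockdowns, with a log2 fold change of 0.0093 (SE 0.20). Fbxw16 was at 322 and 323 CPM in the controls and at 236 and 409.7 CPM in the knockdowns (0.0016, SE 0.25). Fbxw20 was at 327 and 352 CPM in the controls and at 249.5 and 451 CPM in the knockdowns (0.04, SE 0.27). In all 3 the control values were nearly equal, with knockdown 1 below and knockdown 2 above both. Among the 10 genes Fbxw20 had the largest ratio of knockdown 2 to knockdown 1, 1.81-fold.

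Fbxw18 was at 279 and 292 CPM in the controls and at 234 and 299 CPM in the knockdowns (log2 fold change -0.10, SE 0.14). Fbxw19 was at 373 and 333 CPM in the controls and at 291 and 361 CPM in the knockdowns (-0.12, SE 0.14). Fbxw21 was at 167 and 142 CPM in the controls and at 121 and 163 CPM in the knockdowns (-0.12, SE 0.18). These 3 had the lowest fold changes of the 10. In Fbxw19 and Fbxw21 control 1, not knockdown 2, was the highest library.

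Fbxw13, the least abundant, was at 24.7 and 23.5 CPM in the controls and at 20.6 and 36.4 CPM in the knockdowns, between 1885 and 3415 counts a library. Its log2 fold change of 0.24 (SE 0.30) was the highest of the 10 and had the widest interval, from -0.51 to 0.99. Knockdown 2 alone stood apart, 1.51 times the control mean.

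The fold changes of the 10 genes thus ran from -0.12 to 0.24, with 6 above 0 and 4 below, and a median of 0.0055. Over all genes tested the median was -0.0025, with 49.7% above 0. The 95% interval of the fold lay within 2-fold in either direction for all 10 genes, against 31.8% of all genes tested, most of which have far fewer counts, and within 1.5-fold for 7 of them, the exceptions being Fbxw13, Fbxw16 and Fbxw20. Changes smaller than these intervals could not be resolved with 2 libraries a group. The direction of the comparison depended on which knockdown library was used: without knockdown 1 all 10 fold changes were above 0 (median 0.29, smallest adjusted p 0.140 by edgeR), and without knockdown 2 all 10 were below 0 (median -0.31, smallest adjusted p 0.567). In those fits the lone knockdown library is assumed to vary like the controls, and none of the 10 passed. At an unadjusted p under 0.05 there were 7 of the 10 without knockdown 1, against 13.1% of all genes, and 9 of the 10 without knockdown 2, against 8.02% of all genes (edgeR).

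**Figure D3:**
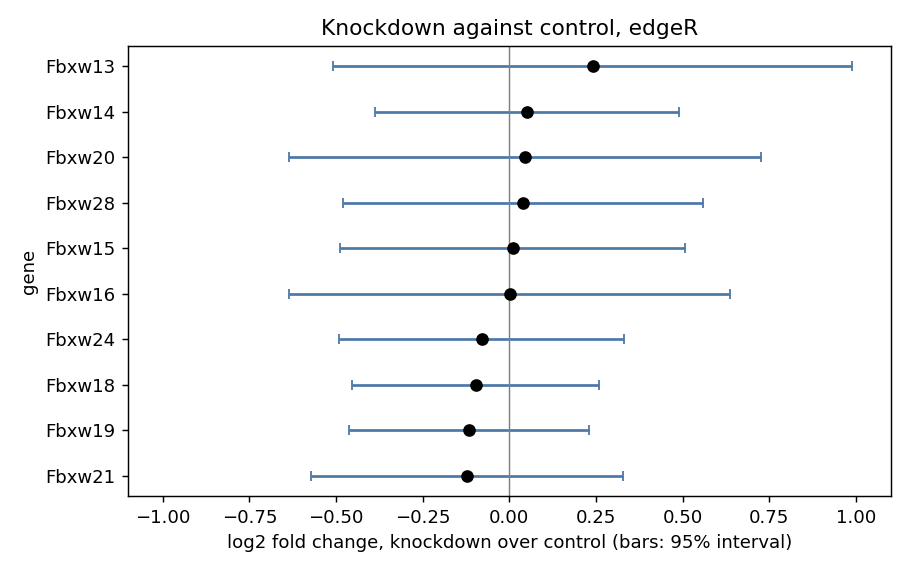
Log2 fold change of the 10 genes, knockdown over control, from the edgeR fit over all genes; bars are 95% intervals. Every interval crosses 0, and the widest, that of Fbxw13, runs from -0.51 to 0.99.

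Within the knockdown group the 10 genes differed in a common direction. Knockdown 1 was the lowest of the 4 libraries for 10 of the 10 genes, and knockdown 2 the highest for 8 of 10. Among 2111 genes whose mean reached 100 CPM, all of the 10 but Fbxw13 included, knockdown 1 was the lowest for 41.1%, knockdown 2 the highest for 61.4%, and both held for 29.2%. The log2 ratio of knockdown 2 to knockdown 1 ran from 0.31 to 0.85 over the 10 genes, with a median of 0.56. Over those 2111 genes its median was 0.15, with 10th and 90th percentiles of -0.13 and 0.48. Between the controls the same ratio, control 2 over control 1, ran from -0.24 to 0.10 over the 10 genes with a median of -0.03. Of the flanking genes, at far lower levels, Plxnb1 had a log2 ratio of 0.70 and Spink8 one of -3.39, from 43 and 4 counts in knockdown 1 and knockdown 2. The libraries are single samples, so this difference between them has no replicate check, and it is given without a test.

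**Figure D4:**
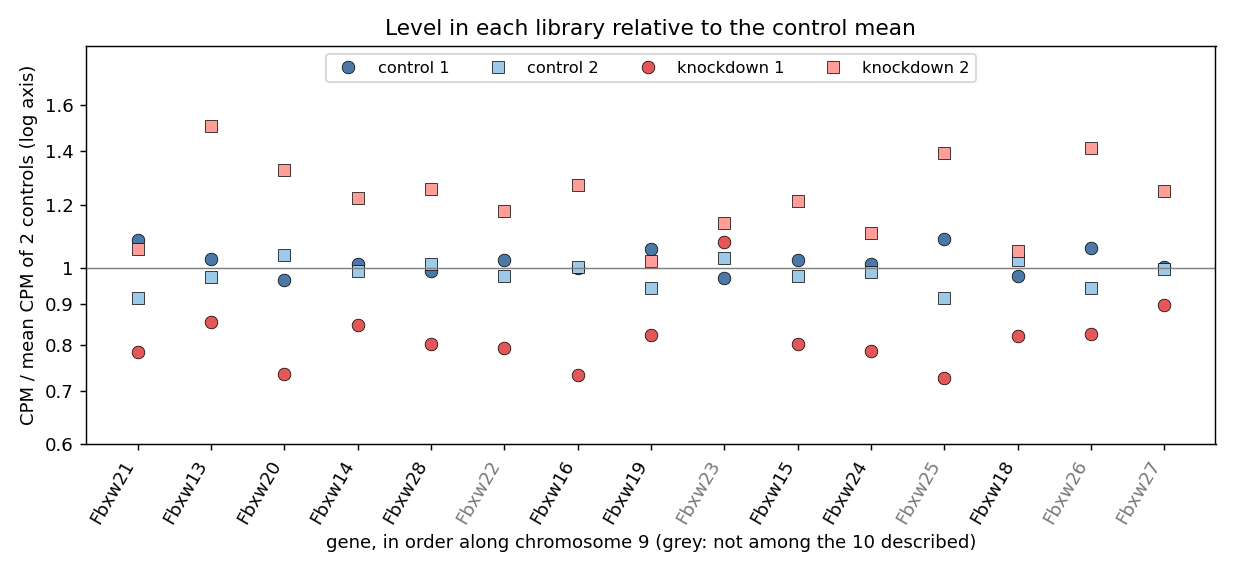
CPM of each Fbxw gene of the cluster in each library, divided by the mean of its 2 control libraries (log axis), in order along chromosome 9. Knockdown 1 lies below the control mean and knockdown 2 above it for all genes but the pseudogene Fbxw23, which lies above it in both.

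The other Fbxw genes of the cluster differed between the knockdown libraries in the same direction, with a single exception in size. Knockdown 2 was the highest library for 5 of 5 and knockdown 1 the lowest for 4 of 5. Fbxw25 was at 55.8 and 47.0 CPM in the controls and at 37.3 and 71.7 CPM in the knockdowns. The pseudogene Fbxw23 was the exception, at 265 and 282 CPM in the controls and 295 and 311 CPM in the knockdowns. Its log2 ratio of knockdown 2 to knockdown 1 was 0.08, below those of all the 10 genes. Its log2 fold change of 0.15 (SE 0.10) did not pass the test (edgeR adjusted p 0.9999).

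In the sum over the 10 genes, the libraries were at 6142 and 6053 CPM in the controls and at 4883 and 7212 CPM in the knockdowns, a mean of 6098 ± 62.4 and 6048 ± 1646 CPM (SD, n = 2). Knockdown 2 thus exceeded knockdown 1 by 1.48-fold, while the controls differed by a ratio of 0.986. The make-up of the sum moved little: Fbxw24 supplied between 25.2 and 27.1% of the counts of the 10 genes, Fbxw28 between 20.3 and 22.0%, Fbxw14 between 19.8 and 20.96% and Fbxw15 between 8.12 and 8.46%. At the other end Fbxw13 supplied between 0.388 and 0.504%. In these bulk samples, fewer embryonic cells with a transcript and less of it per cell cannot be told apart.

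Other measures that differed between the same libraries are given beside this. The TMM factor was 0.949 in knockdown 2 and between 1.01 and 1.02 in the other libraries. The sum of 30 transcripts known from oocytes, such as Gdf9, Bmp15 and Zp3, was at 20808 and 20999 CPM in control, 18497 CPM in knockdown 1 and 21045 CPM in knockdown 2. It thus differed by 1.14-fold between the knockdown libraries, as did the sum of 28 genes of other oocyte clusters (Oog, Pramel, Tcl1 and Nlrp genes). Gene by gene, knockdown 2 was above knockdown 1 for 23 of the 30 transcripts and 19 of 27 tested genes of the other clusters. Over all genes tested this held for 11405 of 25565. The median log2 ratio of knockdown 2 to knockdown 1 was 0.15 and 0.18 in the 2 oocyte sets, against 0.56 over the 10 Fbxw genes. Over the 2111 abundant genes used above it was 0.15, and over the 32 SCF genes described below also 0.15. The shift of the 2 oocyte sets was thus close to that of abundant genes in general and was not particular to oocyte transcripts. Knockdown 2 was the highest library for 11 and 12 genes of the 2 oocyte sets. Relative to the 30 oocyte transcripts, the 10 Fbxw genes were at 0.295 and 0.288 in control and at 0.264 and 0.343 in knockdown, so that a 1.30-fold difference between knockdown libraries was left. The sum of 17 transcripts typical of the 2-cell stage lay the other way, at 1616 CPM in knockdown 1 and 1492 CPM in knockdown 2, with controls at 1438 and 1479 CPM. The part of these measures in the difference among the Fbxw genes was not tested.

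**Figure D5:**
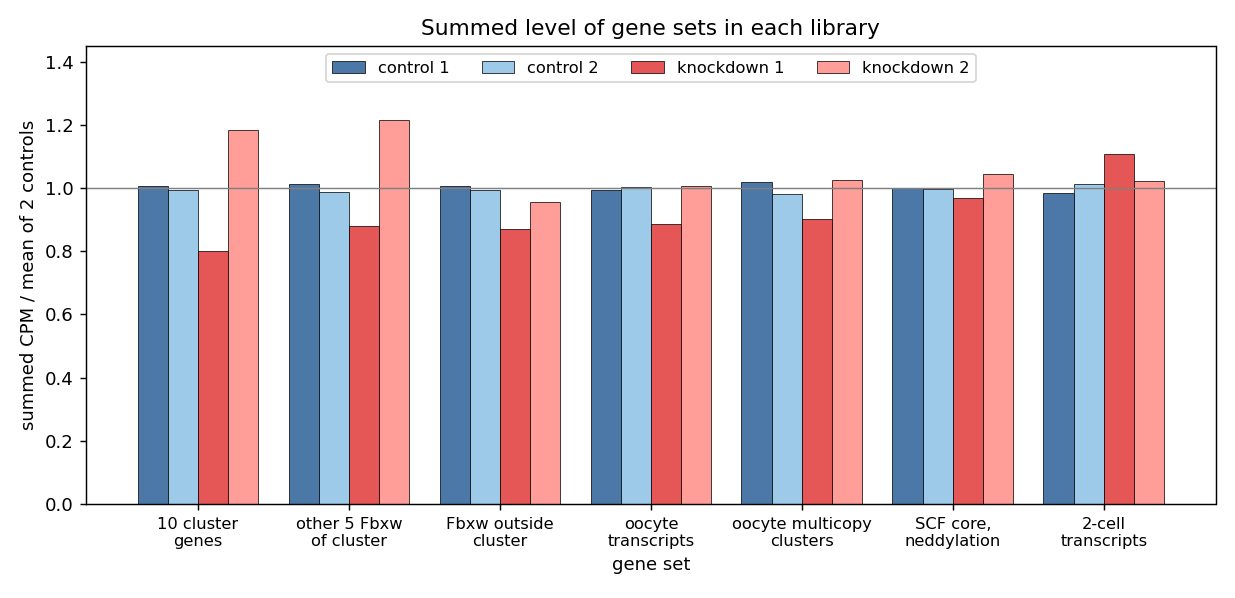
Summed CPM of 7 gene sets in each library, divided by the mean of the 2 controls; bars start at 0. The 10 cluster genes stand at 4883 CPM in knockdown 1 and 7212 CPM in knockdown 2 against a control mean of 6098 CPM, a wider spread than for the oocyte, SCF and 2-cell sets.

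Marker lists of cells that could accompany embryos each summed to far less than the 10 Fbxw genes, and single genes made up much of each sum. Of 16 cumulus and granulosa markers, 11 passed the count filter, Inha and Ereg had no counts in all 4 libraries, and the sum was 53.0 to 57.9 CPM in the controls and 49.2 to 66.2 CPM in the knockdowns. Of 12 sperm markers, 9 passed, Smcp and Gapdhs were at 0, and the sum was 195 to 196 CPM in the controls and 186 to 192 CPM in the knockdowns, of which Odf2 alone gave 172 to 179 CPM (17.7 ± 0.321 RPKM, SD, n = 4). Of 13 blood, oviduct and stroma markers, 10 passed, Hbb-bs, Hbb-bt and Col3a1 were at 0, and the sum was 94.3 to 120.1 CPM in the controls and 82.7 to 95.2 CPM in the knockdowns. Of this list Pecam1 was at 49.3 to 61.1 CPM, and Hba-a1 had the highest level per length, 27.3 ± 9.69 RPKM (SD, n = 4), above Fbxw13. The cumulus sum was 1.35-fold higher in knockdown 2 than in knockdown 1, carried by Cyp19a1 (36.8 and 55.7 CPM in knockdown 1 and knockdown 2), while 4 of the 11 tested markers were higher in knockdown 2 and their median log2 ratio of knockdown 2 to knockdown 1 was -0.45. The part of these markers in the result was not tested.

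Genes for the partners that an F-box protein needs had counts, some of them at low levels, and none passed the test. Of 32 genes for the SCF core, the Nedd8 pathway that activates cullins, and their regulators, all 32 were tested, 0 were called in either direction, and 1 had an unadjusted p under 0.05. Their median log2 fold change was -0.0087, with 15 above 0 and 17 below. The highest per length was Cul1, the scaffold, at 518 ± 9.63 RPKM (SD, n = 4), followed by Skp1a, the adaptor that holds the F-box, at 427 ± 22.3 RPKM and Dcun1d1, which promotes neddylation of cullins, at 151 ± 10.2 RPKM. The lowest of the 32 were Cand2 at 0.117 ± 0.102 RPKM, Ube2m at 0.786 ± 0.207 RPKM and Ube2r2 at 0.787 ± 0.189 RPKM. Fbxw24, Fbxw28 and Fbxw14 were above Cul1 by mean RPKM. The mean of Cul1 lay within the range of Fbxw14 over the libraries (484 to 699 RPKM) and at the low end of that of Fbxw28 (518 to 812 RPKM). The separate values of that pair are uncertain. Cul1 was at 2066 and 2144 CPM in the controls and at 2061 and 2106 CPM in the knockdowns, without the gap between knockdown libraries seen in the Fbxw genes. Of the 32 genes, however, 26 were higher in knockdown 2 than in knockdown 1, with a median log2 ratio of 0.15. Knockdown 2 was the highest library for 15 of them. The smallest p belonged to Ube2f, a Nedd8-conjugating enzyme, at 22.6 and 26.3 CPM in the controls and at 36.4 and 43.9 CPM in the knockdowns. Its groups did not overlap, but its log2 fold change of 0.72 (SE 0.19) did not pass (edgeR adjusted p 0.9999). Cops2, a subunit of the signalosome that removes Nedd8, had a log2 fold change of 0.23 (SE 0.10), and Arih1, a ubiquitin ligase that works with neddylated cullins, one of 0.19 (SE 0.10).

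Fbxw genes outside the cluster were far lower. The 10 of them in the list summed to between 252 and 291 CPM, against 4883 to 7212 CPM for the 10 of the cluster. Fbxw4 was the highest at 45.4 ± 3.68 RPKM (SD, n = 4), below 9 of the 10 in the cluster. Fbxw11 and Btrc, the paralogous receptors for beta-catenin and other phosphorylated substrates, were at 6.28 ± 0.533 and 3.63 ± 0.574 RPKM. None was called, 0 of 10 had an unadjusted p under 0.05, and the median log2 fold change was -0.20 with 3 above 0 and 7 below. Fbxw9 and Fbxw5 had the smallest p, with log2 fold changes of -1.11 (SE 0.57) and -0.68 (SE 0.38), and Fbxw9 was at only 1.04 to 3.72 CPM in the 4 libraries. Their sizes rested on single controls: Fbxw9 was at -1.56 without control 1 and -0.46 without control 2, and Fbxw5 at -0.29 without control 1 and -0.99 without control 2. Fbxw7, the receptor for cyclin E and MYC, had a mean of 18.3 ± 1.24 CPM over the controls and 22.3 ± 0.101 CPM over the knockdowns (SD, n = 2). Knockdown 2 was higher than knockdown 1 for 6 of these 10 genes and the highest library for 1, against 27.9% of all genes tested.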

How the data were processed

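Embryo cDNA was pre-amplified before library preparation, per the labels' protocols. The authors deposited whole-number counts per gene, not normalized by their values. Build mm10 and the tools HISAT2 2.1.0, Picard 2.18.2, Trim Galore 0.6.5 and CASAVA 1.8 appear in the submitters' processing notes, without roles. Counting tool, annotation, strand and duplicate handling: not given in the sources used here. Totals were 78865491 to 99011109 counts a library. By Ensembl ID without version, 53620 of 53715 rows matched GENCODE M21 (GRCm38). The 2 closest libraries, the controls, still differed (chi-square over degrees of freedom, 28.8), and all 4 were used.

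Counts were tested with edgeR 4.0.16 (R 4.3.3): filterByExpr (minimum 10 counts, 25565 genes), TMM, quasi-likelihood F-test of knockdown against control, Benjamini-Hochberg threshold 0.05. SE is the log2 fold change over the square root of F. On simulated data (23757 genes, 200 of them changed, each gene drawn independently), 34 of 70 genes changed 2-fold and 65 of 67 changed 4-fold were called. Alternatives were DESeq2 1.42.0, limma-voom (limma 3.58.1), size factors of the DESeq2 kind (RLE), no filter, a replicate block and each library left out. Sequences came from RefSeq promoter windows and GENCODE transcripts and were aligned with Biopython 1.88. Members and lists were chosen with earlier results of these data known. The text names the 10 genes, other Fbxw genes within 200 kb, the nearest flanking genes, and, of each gene list, the 3 genes with the smallest p and the 3 highest by RPKM, of which those of the SCF and other Fbxw lists are described. A few genes that define a list are named without values. Motifs were chosen after the promoter sequences were seen.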

Additional observations from a re-analysis of the deposited data

How the results depend on the processing

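Under all alternatives run, 0 of the 10 cluster genes were called. Over all genes, edgeR called 0 and DESeq2 34 (1121 with an unadjusted p under 0.05), and between 0 and 3 were called with a library left out. The signs of fold changes this small were not stable. In these, 3 of the 10 genes went below 0 with limma-voom, with the replicate block and with the crossed block, which was added after seeing the data: Fbxw20 (-0.018, -0.016 and -0.016), Fbxw16 (-0.056, -0.052 and -0.052) and Fbxw15 (-0.025, -0.021 and -0.021). No call changed under the block. Same-numbered libraries did not deviate together (r = -0.21 over 8185 genes), and the labels name no pairing.

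With a library left out, log2 fold changes ran from -0.35 to 0.078 for Fbxw21, -0.22 to 0.59 for Fbxw13, -0.44 to 0.41 for Fbxw20, -0.23 to 0.29 for Fbxw14, -0.31 to 0.33 for Fbxw28, -0.44 to 0.35 for Fbxw16, -0.27 to 0.031 for Fbxw19, -0.31 to 0.28 for Fbxw15, -0.34 to 0.15 for Fbxw24 and -0.28 to 0.070 for Fbxw18. For other cluster genes they ran from -0.33 to 0.24 for Fbxw22, -0.46 to 0.48 for Fbxw25, -0.27 to 0.50 for Fbxw26 and -0.15 to 0.32 for Fbxw27. The log2 ratio of the summed CPM of the 10 genes ran from -0.32 to 0.24. With the longest transcript as length, 2 genes changed rank. With 2 libraries a group, 34 of 70 simulated 2-fold changes were called. The simulation drew each gene independently and held no shift shared by genes of a library. It therefore does not give the power for these 10 genes.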
